A study of Mus musculus with 8 samples.

Results

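The genes described here encode the MHC class I molecule and the machinery that supplies it with peptide: B2m, H2-K1, H2-D1, H2-T23, Tap1, Tap2, Tapbp, Psmb8 and Psmb9. They were followed in mouse visual cortex deprived of its main eye's input, through every probe set annotated to at least 1 of these 9 genes, of 8251 genes named on the array. That gave 19 probe sets of the 12422 on the array that are not controls. Of these, 15 carried the name of 1 member alone and 4 were shared by several H2 genes. The tissue came from wild-type C57Bl6 mice, which lost 1 eye on postnatal day 20 and whose cortex was taken on postnatal day 24, 4 days later. Both groups came from operated mice: the deprived group is the visual cortex opposite the lost eye, and the non-deprived group is the visual cortex on the same side as it. Each group held 4 arrays, with the numbers 1 to 4 in either. Cortex of unoperated mice was not analysed here, so a difference between hemispheres cannot be assigned to either of them. The design text speaks of pooled samples, and nothing says that each array came from a separate animal, so the p-values measure only how these samples vary, part of which may be technical. Xist, the RNA made from the inactive X chromosome of female cells, had a signal of 3.8 and 59 on the arrays numbered 1 and of 334 to 838 on the others, so the samples were not all alike in it; the labels give no sex.

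A class I molecule is a heavy chain, which holds a short peptide in its groove, bound to the invariant light chain beta-2-microglobulin. Peptides are cut in the cytosol by the proteasome, whose catalytic subunits can be exchanged for interferon-inducible ones, and are pumped into the endoplasmic reticulum by the TAP transporter, where tapasin helps to load them. In the immune system the loaded molecule is read by T cells and natural killer cells. In the brain, class I transcripts are found in neurons as well as in microglia and endothelium, and class I molecules have been implicated in activity-dependent remodelling of visual connections.

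The promoters of 4 members are printed to show the regulatory elements that the class I genes share and those they do not. They are RefSeq windows of the GRCm38.p6 build, from 250 bases before to 50 bases after the gene's start, each on the gene's own strand. The B2m window lies at chr2:122147437-122147736 (plus strand), that of H2-K1 at chr17:34000298-34000597 (minus strand), that of H2-D1 at chr17:35262844-35263143 (plus strand) and that of Tap1 at chr17:34187306-34187605 (plus strand). Capitals mark a core of the interferon regulatory factor motif, AANNGAAA, and the kappaB motif GGGATTCCC, each searched on both strands.
B2m: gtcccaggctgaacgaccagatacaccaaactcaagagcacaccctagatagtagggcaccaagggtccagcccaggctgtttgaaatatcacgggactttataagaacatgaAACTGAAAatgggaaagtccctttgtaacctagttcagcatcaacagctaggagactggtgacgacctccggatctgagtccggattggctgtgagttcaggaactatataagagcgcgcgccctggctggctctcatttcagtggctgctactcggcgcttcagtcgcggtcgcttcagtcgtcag
H2-K1: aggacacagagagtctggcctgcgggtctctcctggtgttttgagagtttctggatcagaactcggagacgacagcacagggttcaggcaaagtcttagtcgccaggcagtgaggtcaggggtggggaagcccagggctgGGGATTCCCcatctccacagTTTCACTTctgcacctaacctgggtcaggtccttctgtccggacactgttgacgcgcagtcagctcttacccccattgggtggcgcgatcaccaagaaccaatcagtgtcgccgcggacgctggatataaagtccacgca
H2-D1: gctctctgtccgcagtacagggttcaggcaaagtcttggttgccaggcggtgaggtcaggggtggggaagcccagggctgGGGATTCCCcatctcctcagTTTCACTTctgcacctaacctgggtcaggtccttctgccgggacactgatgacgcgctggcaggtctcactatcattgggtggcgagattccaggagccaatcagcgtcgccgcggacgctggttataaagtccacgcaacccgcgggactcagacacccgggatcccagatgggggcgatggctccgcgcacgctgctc
Tap1: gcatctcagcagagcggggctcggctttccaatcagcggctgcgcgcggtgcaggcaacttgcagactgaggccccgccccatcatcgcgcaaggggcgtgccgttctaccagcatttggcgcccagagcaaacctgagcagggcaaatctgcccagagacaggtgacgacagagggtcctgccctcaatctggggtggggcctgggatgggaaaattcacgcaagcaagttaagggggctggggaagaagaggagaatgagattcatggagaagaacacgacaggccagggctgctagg

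The H2-K1 and H2-D1 windows held the kappaB motif followed by the interferon regulatory factor core, and aligned with each other at 91.2% identity over the aligned bases, gaps left out, against 69.9% for B2m and H2-D1. Windows of unrelated genes were not aligned, so these shares have no baseline, and 69.9% is not read as likeness. The B2m window held the core, written AACTGAAA, but no exact kappaB motif, and the Tap1 window held neither. The Tap1 window shares 275 bases with that of Psmb9, which is read in the opposite direction from a start 226 bases away. The genes thus run away from each other, and 1 short stretch lies between their starts. Of the 8 members with a window, 4 held the core (23.9% of all 32851 windows did) and 2 the kappaB motif (0.353%). The 2 with the kappaB motif are H2-K1 and H2-D1, whose windows are 91.2% identical, so these matches are not independent of each other. The core of the cAMP response element, TGACG on either strand, was found in 5 of 8 windows (20.8% of all), the CCAAT box in 7 of 8 (37.4%) and the interferon-gamma activated site TTCNNNGAA in Psmb8 alone of the 8 (8.3%). In the counts of the response element and the CCAAT box, Tap1 and Psmb9 hold 1 and the same site in their overlapping windows, which is counted for each. These matches describe letters in the windows, and factor binding was not measured.

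No member differed between deprived and non-deprived cortex by the test. Of the 19 probe sets, 11 were bright enough to be tested, meaning that their mean log2 signal lay above the 40th percentile of all probe sets, a signal of about 110. In limma with Benjamini-Hochberg adjustment over all 7453 tested probe sets, 0 of the 11 passed in either direction, and 0% of all tested probe sets were called lower and 0% higher. At an unadjusted p under 0.05 there were 0 of 11 members, against 2.67% of all probe sets (199 of 7453). This fit treats the arrays as unpaired, although same-numbered arrays resembled each other. With the array number as a block in limma, 524 of all probe sets and 0 of the 11 members had an unadjusted p under 0.05. The groups overlapped for each of the 11, where 2.04% of all tested probe sets had groups that did not overlap. Adjusted p was 0.995 for every tested member, which was also the smallest adjusted p of all tested probe sets. It therefore says little about any 1 member. Unadjusted limma p of the members ran from 0.27 to 0.892. Of the 11 differences, 4 lay below and 7 above 0, with a median of 0.0429 on the log2 scale beside 0.0238 over all probe sets, and a median size without sign of 0.0949 beside 0.127. Differences are deprived minus non-deprived of log2(signal + 15.3), and a fold is on that scale, which understates the change of dim genes.

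**Figure D1:**
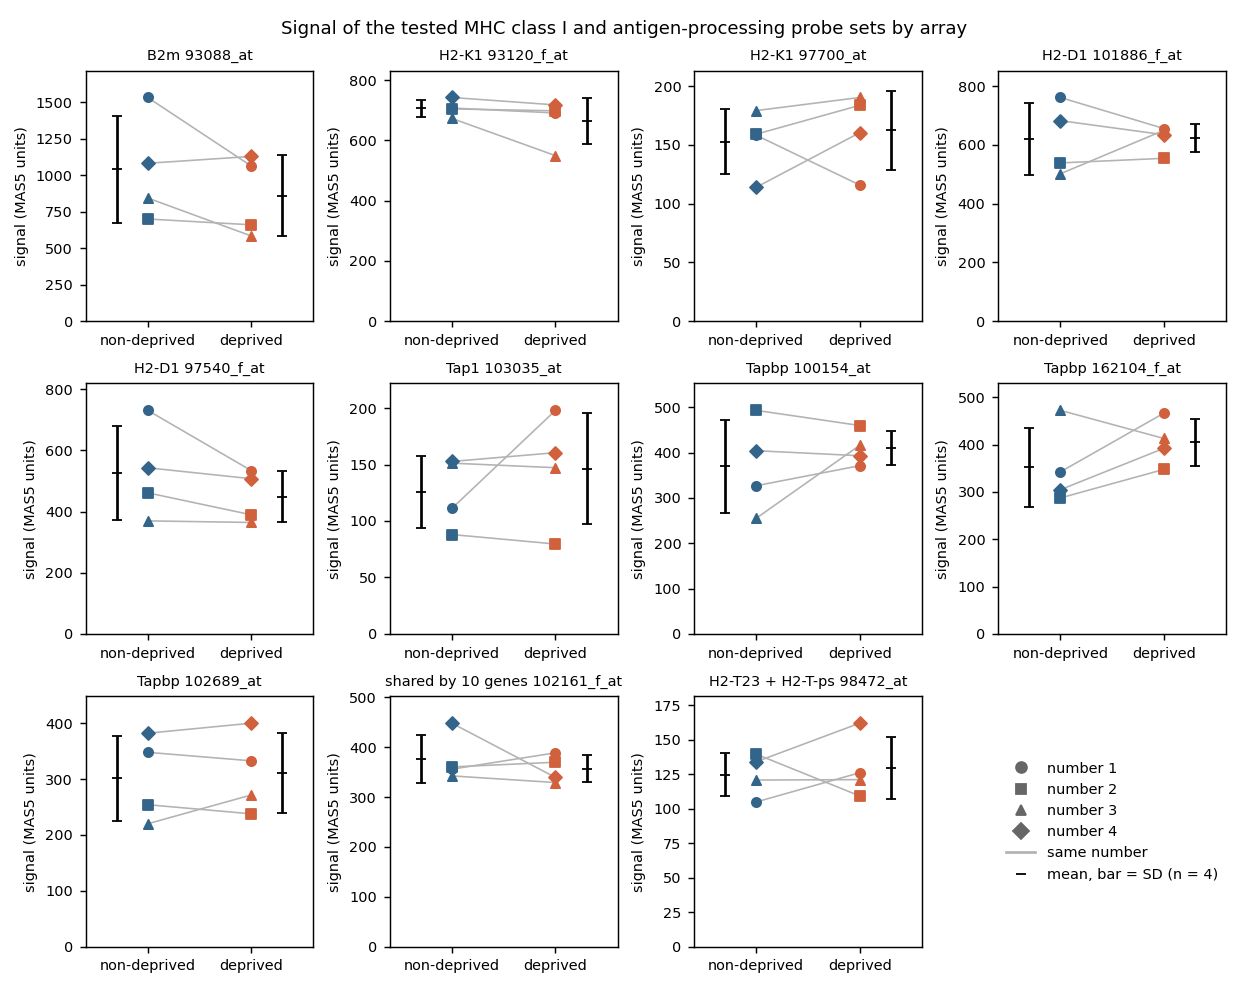
Signal in MAS5 units (vertical axis, from 0) of the 11 tested probe sets in non-deprived (blue) and deprived (orange) cortex, with a grey line joining arrays of the same number and the group mean with its SD (n = 4) at the side. The groups overlap in each panel, and in the B2m panel numbers 1 and 4 lie above numbers 2 and 3 in both groups.

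B2m encodes beta-2-microglobulin, the light chain that classical heavy chains need to reach the cell surface. Its signal was 1532, 699, 843 and 1081 in non-deprived replicates 1 to 4 and 1062, 659, 583 and 1128 in deprived replicates 1 to 4. The groups overlapped from 699 to 1128, and arrays numbered 1 and 4 were the highest in either hemisphere. The means were 1039 ± 365 and 858 ± 277 (SD, n = 4). The log2 difference was -0.27 ± 0.27 (SE), a fold of 0.831 with a 95% interval of 0.555 to 1.245 (limma adjusted p = 0.995), and the deprived sample was lower in 3 of 4 same-numbered pairs. Without non-deprived replicate 1 the difference was -0.0615. B2m had the lowest difference of the tested members, and the interval, from the unpaired fit, includes no change. With the array number as a block, the unadjusted limma p for B2m was 0.075 and the adjusted p 0.705.

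H2-K1 and H2-D1 encode the classical heavy chains that present peptides to CD8 T cells. Most of their probe sets carry the suffix _f, by which the array's design marks probes that match a family of similar sequences, so the heavy chains cannot be fully told apart on this array. The bright probe set of H2-K1, 93120_f_at, had 708, 705, 673 and 743 in non-deprived and 691, 699, 550 and 718 in deprived replicates 1 to 4. The values were even, apart from deprived replicate 3, which lay low, and the set had the smallest SE of the tested members. The log2 difference was -0.09 ± 0.14 (SE), a fold of 0.936 with a 95% interval of 0.76 to 1.15. The deprived sample was lower in 4 of 4 pairs, with log2 pair differences of -0.0124 to -0.286, and without deprived replicate 3 the difference was -0.00838.

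A dimmer H2-K1 probe set, 97700_at, which is not marked as a family set, had 158, 159, 179 and 114 in non-deprived and 116, 184, 190 and 160 in deprived replicates 1 to 4. Its log2 difference was 0.08 ± 0.23 (SE), which turned below 0 with cyclic loess scaling (-0.0135), and the deprived sample was lower in 1 of 4 pairs. The probe sets of H2-K1 thus had opposite signs, each within its error. The last H2-K1 set, 97125_f_at, was too dim to be tested, with 38.7 to 134 over all arrays and a log2 difference of -0.31 ± 0.34 (SE).

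H2-D1 was read by a pair of tested probe sets of similar design. The first, 101886_f_at, had 762, 539, 502 and 683 in non-deprived and 656, 554, 650 and 635 in deprived replicates 1 to 4, a log2 difference of 0.02 ± 0.16 (SE) with a fold interval of 0.794 to 1.299, and -0.0375 without non-deprived replicate 2. The other, 97540_f_at, had 731, 462, 370 and 543 in non-deprived and 534, 390, 365 and 508 in deprived replicates 1 to 4. It was lower in the deprived sample of 4 of 4 pairs, with a log2 difference of -0.20 ± 0.21 (SE) and a fold interval of 0.63 to 1.21. Without non-deprived replicate 1 the difference was -0.0298, and without non-deprived replicate 3 it was -0.348. Non-deprived replicate 1 was the highest array for both. The last H2-D1 set, 97541_f_at, was dim, at 9.9 to 29.3, and was not tested.

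H2-T23 encodes Qa-1, a non-classical heavy chain that presents peptides to natural killer cell receptors, and no probe set carried its name alone. The probe set shared with the pseudogene H2-T-ps had 105, 140, 121 and 134 in non-deprived and 126, 109, 121 and 162 in deprived replicates 1 to 4. Its log2 difference was 0.04 ± 0.22 (SE), and it was -0.0457 with quantile and -0.0609 with cyclic loess scaling. A probe set shared by 10 genes, H2-K1, H2-D1 and H2-T23 among them, had 356, 360, 342 and 448 in non-deprived and 389, 370, 329 and 339 in deprived replicates 1 to 4. Its log2 difference of -0.07 ± 0.15 (SE) sums over heavy chains that cannot be separated. The other shared sets were dim: one read H2-K1 with H2-Q7, H2-Q9 and H2-Q10 (36.8 to 98.6) and one read H2-D1 with H2-Q1, H2-Q4, H2-Q7 and H2-Q9 (14.1 to 105.5).

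Tap1 and Tap2 encode the subunits of the peptide transporter. Tap1 had a signal of 111, 88, 151 and 153 in non-deprived and 198, 79.6, 147 and 160.5 in deprived replicates 1 to 4. Deprived replicate 1 was the highest array, and number 2 was the lowest in both groups. The log2 difference was 0.17 ± 0.29 (SE), with a fold interval of 0.724 to 1.74, the widest among the tested members. Without both arrays numbered 1 it was -0.0306. A second Tap1 probe set was dim in most arrays (16.1 to 137). Tap2 was dim on all arrays, at 13.1 to 72.6, and gave no test.

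Tapbp encodes tapasin, which bridges the transporter and the heavy chain, and was read by 3 tested probe sets. Probe set 100154_at had 327, 494, 255 and 404 in non-deprived and 371, 460.0, 416 and 393 in deprived replicates 1 to 4, a log2 difference of 0.18 ± 0.20 (SE) that was 0.0211 without non-deprived replicate 3. Probe set 162104_f_at had 342, 287, 472 and 305 in non-deprived and 466, 348, 413 and 392 in deprived replicates 1 to 4, with 0.21 ± 0.18 (SE), the highest difference of the tested members. This set alone of the 3 carries the family suffix _f. Probe set 102689_at had 348, 254, 220.0 and 382 in non-deprived and 333, 238, 272 and 400 in deprived replicates 1 to 4, with 0.05 ± 0.22 (SE), or -0.0106 with quantile and -0.000611 with cyclic loess scaling. The 3 sets ranked the arrays differently: non-deprived replicate 3 was the lowest array in the first and the third and the highest in the second.

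Psmb8 and Psmb9 encode LMP7 and LMP2, interferon-inducible catalytic subunits of the immunoproteasome. Psmb10, which encodes another such subunit, is not a member here, but was tested among the genes that supply and load peptide. Its mean signal was 1078 ± 229 after deprivation against 1204 ± 316.5 (SD, n = 4). The log2 difference of Psmb10 was -0.14 ± 0.21 (SE; limma adjusted p = 0.995), and the deprived sample was lower in 3 of 4 pairs. Psmb8 lay just under the brightness limit, with 129, 80.8, 109.7 and 133 in non-deprived and 112, 134, 102 and 76.9 in deprived replicates 1 to 4, and had a log2 difference of -0.08 ± 0.27 (SE). Psmb9 was close to the floor of the arrays, with 16.5, 27.8, 16.4 and 21.4 in non-deprived and 35.5, 31.4, 20 and 42.1 in deprived replicates 1 to 4. The deprived array was the higher one in 4 of 4 pairs, with a log2 difference of 0.40 ± 0.25 (SE), and its groups overlapped. The 10th percentile of all signals on an array moved the same way, with a mean of 17.2 ± 2.70 over deprived arrays against 13.4 ± 0.678 (SD, n = 4). The exact two-sided permutation p was 0.0286, the smallest possible when arrays are shuffled without regard to their numbers. No permutation within same-numbered pairs was run. The part of the 10th percentile in the value of Psmb9 was not tested.

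**Figure D2:**
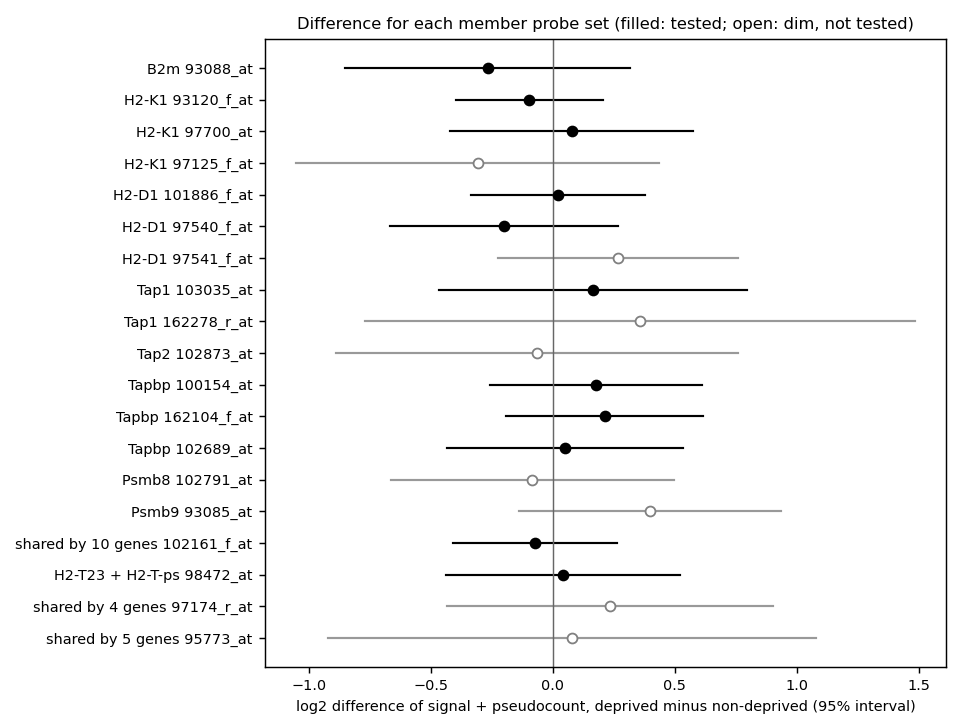
Log2 difference of signal plus pseudocount, deprived minus non-deprived (horizontal axis), with its 95% interval for each of the 19 member probe sets; filled points were tested and open points were too dim. Every interval includes 0, and those of the 11 tested sets lie between -0.85 and 0.80.

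The size of change that these arrays leave possible differed between members. In the main fit, which treats the arrays as unpaired, all 11 intervals of tested probe sets stayed within 1 log2 unit on either side of 0. In that fit 3 of 11 stayed within 0.5: the bright H2-K1 set, 101886_f_at of H2-D1 and the set shared by 10 genes. The SE ran from 0.138 to 0.29, with a median of 0.215 beside 0.196 over all tested probe sets. With the sample number as a block in the model, the SE was 0.134 for B2m (against 0.267) and 0.132 for 97540_f_at of H2-D1 (against 0.215). Among the tested members only the H2-T23 set had a larger SE with the block, 0.226 against 0.219. Intervals with the block were not computed.

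What varied most in B2m was not the hemisphere but the sample number. The mean of both arrays of a number lay 0.488 above the probe set's overall log2 mean for number 1 and 0.282 above it for number 4, and was -0.407 for number 2 and -0.362 for number 3. The same order of sign held for the H2-D1 set 97540_f_at, at 0.383, -0.16, -0.361 and 0.138 for numbers 1 to 4, and for 101886_f_at, at 0.191, -0.171, -0.11 and 0.0904. The bright H2-K1 set stayed between -0.164 and 0.0938, and 97700_at went the other way, at -0.177, 0.127, 0.23 and -0.18. Number 1, the highest pair for B2m, is also the pair with low Xist (3.8 and 59, against 334 to 838), and the part of that difference in the B2m values was not tested.

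Likeness to B2m was measured as Pearson's r of log2 values over the 8 arrays, as a description without a test, since same-numbered arrays resemble each other and all probe sets share the arrays. Among the members the H2-D1 set 97540_f_at was the most alike, with r of 0.899 (Spearman's rho 0.857), which ranked 36 of 7452 probe sets. The Tapbp set 102689_at had 0.737, 101886_f_at of H2-D1 0.65, the bright H2-K1 set 0.604 and Tap1 0.341, while 97700_at of H2-K1 had -0.541 and 100154_at of Tapbp -0.433. The order rested on the arrays farthest from the B2m median, non-deprived replicate 1 and deprived replicate 3. Without them r was 0.907 for Tap1, 0.864 for 102689_at, 0.784 for 101886_f_at, 0.741 for 97540_f_at and 0.414 for the bright H2-K1 set. The genes whose pattern was most like that of B2m were Apex1 (r 0.978), a DNA repair endonuclease, Sarnp (0.965), an RNA-binding protein, and Slc25a44 (0.961), a mitochondrial carrier. Apex1 and Sarnp were also higher in numbers 1 and 4 in both groups, and Slc25a44 was not among the non-deprived arrays. Apex1 had 968, 652, 725 and 838 in non-deprived and 828, 578, 589 and 793 in deprived replicates 1 to 4.

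**Figure D3:**
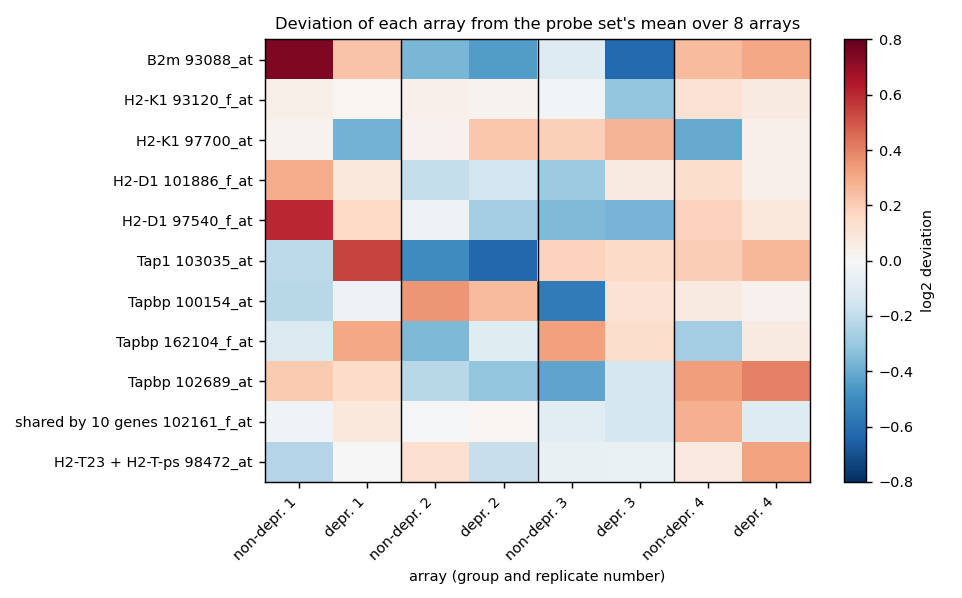
Deviation of each array (columns, in same-numbered pairs) from the mean log2 signal of the probe set over 8 arrays (rows, the 11 tested probe sets); red is above and blue below that mean. B2m and both H2-D1 sets are mostly red for numbers 1 and 4 and mostly blue for numbers 2 and 3, and the 3 Tapbp sets differ from each other.

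The rest of the class I pathway also gave 0 calls in limma in either direction. Of other class I heavy chains and relatives, 18 of 28 listed genes were on the array and 8 were tested, with a median log2 difference of 0.179 beside 0.0202 over all genes (0.0131 with the Gapdh RNA-integrity ratio in the model). The smallest p there belonged to H2-Q10, a soluble class I chain, whose mean signal was 204 ± 28.4 after deprivation against 153 ± 45.9 without it (SD, n = 4), and to H2-M10.1, a chain of the M region, with 325 ± 38.8 against 273 ± 47.9. The log2 difference of H2-Q10, 0.42, was 0.186 without non-deprived replicate 3. Of the genes that supply and load peptide, 10 of 16 were tested, 7 below and 3 above 0, with a median of -0.0723. Psme3, a proteasome activator subunit, had 960.0 ± 147 after deprivation against 1122 ± 172, lower in 4 of 4 pairs, and Uba7, which activates the ubiquitin-like ISG15, 228 ± 36.7 against 179.5 ± 37.5.

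Psmb5, Psmb6 and Psmb7 encode the constitutive catalytic subunits that the immunoproteasome subunits replace. All 3 lay below 0 with a median of -0.189, though Psmb6 was 0.0772 with the actin RNA-integrity ratio in the model. Psmb5, the counterpart of Psmb8, averaged 1548 ± 599 after deprivation against 1862 ± 526 (SD, n = 4; limma adjusted p = 0.995), lower in 4 of 4 pairs. Its log2 difference of -0.30 moved with single arrays: it was -0.142 when non-deprived replicate 1 was left out, and leaving out deprived replicate 1, 2 or 3 gave -0.506, -0.129 or -0.161. Psmb6, the counterpart of Psmb9, had 822 ± 182 against 954 ± 281. Like B2m, Psmb5 was higher in numbers 1 and 4 in both groups, with 2538, 1392, 1503 and 2013 in non-deprived and 2236, 1012, 1082 and 1863 in deprived replicates 1 to 4.

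Of 22 listed genes for class I receptors and co-receptors, with chains of their complexes such as CD3, 15 were on the array. Only Pirb was bright enough to be tested. It encodes a paired immunoglobulin-like receptor that binds class I and has been studied in visual cortex. Its signal was 141.5, 127, 173 and 102 in non-deprived and 109.9, 135, 149 and 172 in deprived replicates 1 to 4, so the groups overlapped widely. The log2 difference was 0.06 ± 0.23 (SE), and it was -0.0286 with quantile and -0.0411 with cyclic loess scaling. The dim genes of this list included the CD3 chains, Cd247, Cd8a, Cd8b1 and the Ly49 genes.

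Interferons are the best-known inducers of class I genes. Of 38 interferon-induced genes, 9 were tested, 3 below and 6 above 0, with a median of 0.18 (-0.353 where the filter was raised to the 60th percentile), and 2 of 9 had an unadjusted p under 0.05, as 2.67% of all tested probe sets did. Irf1, a transcription factor that activates class I promoters, had 158, 107, 172 and 165 in non-deprived and 100.5, 100, 42.5 and 113 in deprived replicates 1 to 4. It was lower in 4 of 4 pairs, and deprived replicate 4 lay above non-deprived replicate 2, so the groups overlapped. The log2 difference was -0.71 ± 0.30 (SE), with limma adjusted p = 0.995, and -0.45 without deprived replicate 3. Irf9, the DNA-binding subunit of the complex that type I interferon activates, had 289.6, 261, 306 and 295 in non-deprived and 313, 389, 410.1 and 406 in deprived replicates 1 to 4. All 4 deprived arrays lay above the others, as for 1.23% of all tested probe sets, and the log2 difference was 0.38 ± 0.16 (SE), with limma adjusted p = 0.995. The classical interferon targets Ifit1, Ifit3, Isg15, Mx1, Gbp2 and Cxcl10 were too dim to be tested.

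Of interferons and their receptors, 7 of 12 were tested, with a median of 0.0121 (-0.202 with the actin ratio). Tyk2, a kinase of the type I interferon receptor, averaged 392.5 ± 67.0 after deprivation against 306.5 ± 62.5, and the receptor chain Ifnar2 140.0 ± 48.3 against 164 ± 24.02 (SD, n = 4). The genes of Ifng and Ifnb1 were dim. MHC class II genes present peptides taken up from outside the cell: 5 of 13 were tested, with a median of -0.0341. Ciita, their master activator, had 157 ± 26.3 after deprivation against 133 ± 19.96, and Ctss, a protease of microglia and other antigen-presenting cells, 1219 ± 68.8 against 1352 ± 235. The class II chains H2-Aa, H2-Ab1 and H2-Eb1 were too dim to be tested.

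**Figure D4:**
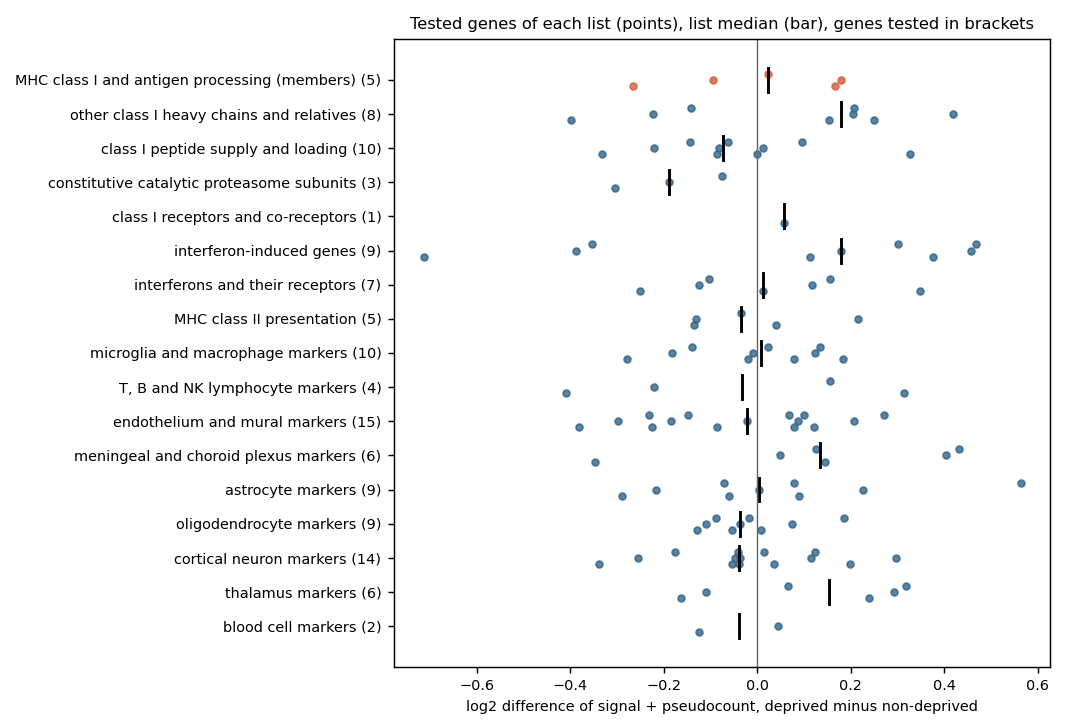
Log2 difference, deprived minus non-deprived (horizontal axis), of each tested gene (points) in the member list (orange) and 16 companion lists (blue), with the list median as a bar and the number of tested genes in brackets. The points of every list lie between -0.713 and 0.563, and the lowest point is Irf1 at -0.71.

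The tissue and the cell types that could carry class I transcripts were read from marker lists. All 14 cortical neuron markers on the array were bright enough to be tested, with a median log2 difference of -0.038. Bulk cortex cannot tell fewer cells of a type from less RNA per cell. The summed signal of 17 microglia and macrophage markers ran from 7206 to 8240 in non-deprived and from 6832 to 7876 in deprived arrays, with 7 of the 17 dim, and 10 tested markers had a median difference of 0.00709. Of 16 endothelium and mural markers it ran from 4848 to 5735 and from 4036 to 5793, with 1 dim and a median of -0.0214. Of 15 lymphocyte markers, 11 were dim, among them Cd3e, Cd3d, Cd8a and Cd2, and the sum ran from 1442 to 1837 and from 1492 to 1842. The medians of astrocyte, oligodendrocyte, meningeal with choroid plexus, thalamus and blood markers were 0.00436, -0.0364, 0.135, 0.153 and -0.0399. In these lists 0 genes were called in limma, and 1 of them, the meningeal list, had 1 gene at an unadjusted p under 0.05. These medians moved with the processing: over all alternatives they ran from -0.171 to 0.0158 for neurons, -0.231 to 0.0828 for endothelium, -0.0491 to 0.0515 for microglia, -0.221 to 0.0547 for lymphocytes, -0.0596 to 0.0639 for astrocytes, -0.0851 to 0.0584 for oligodendrocytes, 0.00398 to 0.369 for meninges, 0.0179 to 0.19 for thalamus and -0.219 to 0.136 for blood. RNA integrity was read from control probe sets at both ends of a transcript. The 3' over 5' signal of actin averaged 1.64 ± 0.239 over deprived arrays against 1.39 ± 0.179 (SD, n = 4; exact two-sided permutation p = 0.171). That of Gapdh averaged 0.842 ± 0.0345 against 0.898 ± 0.0543 (exact two-sided permutation p = 0.143). Both permutations shuffled the arrays without regard to their numbers. With either ratio in the model 0 members were called.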

How the data were processed

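The deposited values are MAS5 signals of linear intensity (tool per the submitters' processing notes). Arrays were rescaled to 1 trimmed mean (2% off each end), 66 of 12488 probe sets were dropped as controls, and 15.3, the 10th percentile, was added before log2. The brighter 7453 of 12422 (mean above the 40th percentile) were fitted with limma 3.58.1 in R 4.3.3 (lmFit, eBayes, trend), with a threshold of 0.05 after Benjamini-Hochberg adjustment; dim members have values from an unfiltered fit. Array medians were 182 to 209, and the number of arrays limits precision. In simulated data (7453 probe sets), 92.4% of changes of 1 log2 unit and 100% of 2 were called. Each simulated probe set had the median spread of its brightness class and independent noise. These shares therefore do not give the power for noisier probe sets or for paired arrays.

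Symbols came from the platform annotation (10833 probe sets with 1, 396 with several, 1193 with none; 10817 updated to the GRCm38.p6 gene table); the brightest probe set stood for a gene in lists. The members and lists were chosen with earlier results of these data known. The rule named all member probe sets, up to 4 genes with the smallest p per pathway list (2 are given) and the 3 genes most like B2m; other genes were named after their values were seen.

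Same-numbered arrays resembled each other: their residuals correlated at 0.158 to 0.422, above the limit of 0.1 in 4 of 4 pairs. Those of other arrays correlated at -0.272 to 0.123. The value of 0.123, for non-deprived replicate 3 with deprived replicate 4, also passed the limit. The labels do not say what a number stands for. The number was therefore tried as a block.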

Additional observations from a re-analysis of the deposited data

Results flagged for a closer look

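In 5 of the 64 groups of 4 samples examined, 1 sample stood far from the other 3, where chance gives about 1 in 20 (3.2 here). The gap to the nearest sample, divided by the whole range of that group, was 0.8412 for the bright H2-K1 set 93120_f_at (deprived replicate 3, lowest) and 0.8294 for the set shared by 10 genes (non-deprived replicate 4, highest). It was 0.9081 for Tap2 (non-deprived replicate 2, highest), whose signals are dim. Among genes of the companion lists it was 0.87 for H2-Q10 (non-deprived replicate 3, lowest) and 0.9495 for Ciita (deprived replicate 3, highest).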

How the results depend on the processing

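Under 24 alternative settings of scaling, pseudocount, filter, variance model, array weights, replicate block, RNA-ratio covariates and left-out samples, 0 member probe sets and 0 of all probe sets were called. With the replicate block the smallest adjusted p of a member was 0.705, for B2m at -0.27 ± 0.134 (SE), and 524 probe sets had an unadjusted p under 0.05, against 199 without it. That count was 97 to 535 over all settings and 133 to 429 when samples were left out, and 0 of the 11 tested members were among them in any setting. The member median of 0.0225 over 5 genes ran from -0.0711 to 0.123. Of 565 recomputed differences of single probe sets, 34 changed sign. Of the 11 members, 5 kept their sign throughout: B2m (-0.433 to -0.0615), the bright H2-K1 set (-0.134 to -0.00838), 97540_f_at of H2-D1 (-0.348 to -0.0298) and a pair of Tapbp sets (0.0129 to 0.381 and 0.0933 to 0.359). B2m was nearest to 0 without non-deprived replicate 1. With quantile scaling the sign turned for 102689_at of Tapbp (-0.0106), the H2-T23 set (-0.0457) and Pirb (-0.0286), and with cyclic loess for these (-0.000611, -0.0609 and -0.0411) and 97700_at of H2-K1 (-0.0135). With array weights it turned for 101886_f_at of H2-D1 (-0.00818) and 102689_at (-0.0541). With the actin ratio it turned for 97700_at (-0.0252), 101886_f_at (-0.00995) and Psmb6 (0.0772), and with the Gapdh ratio for 97700_at (-0.000915) and Ctss (0.0219). When samples were left out, values ran from -0.0443 to 0.238 for 97700_at, -0.0913 to 0.125 for 101886_f_at, -0.0306 to 0.402 for Tap1, -0.082 to 0.17 for 102689_at, -0.135 to 0.0344 for the set shared by 10 genes, -0.0582 to 0.162 for the H2-T23 set and -0.148 to 0.186 for Pirb. The cause of these turns was not tested. Dim signal kept 8 member probe sets out of the test.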

Other observations

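A pair of other H2 probe sets varied widely between arrays in a way that did not follow the hemisphere. A family probe set of H2-T18, a non-classical class I gene, had 488, 837, 1326 and 465 in non-deprived and 471, 1120.0, 1525 and 556 in deprived replicates 1 to 4. Its signal may therefore include similar sequences. This probe set was thus high in numbers 2 and 3, where B2m was low, and low in numbers 1 and 4. A family probe set of H2-K2 had 812, 51.1, 57.1 and 145 in non-deprived and 88.8, 796.5, 80.5 and 80.1 in deprived replicates 1 to 4, high on 1 array of each group with different numbers. Both were picked after their values were seen. H2-T18 is 1 of the 8 tested genes among the other class I chains, with a log2 difference of 0.20 ± 0.40 (SE; limma adjusted p = 0.995).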
